A study of Homo sapiens with 6 samples.

Results

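The nuclear genes for the subunits of the mitochondrial respiratory chain and of the ATP synthase were examined in A549 cells, a human lung adenocarcinoma line, with and without depletion of NME2. Probe sets were taken by symbol: every probe set whose annotation gives 1 symbol beginning NDUFA, NDUFB, NDUFC, NDUFS, NDUFV, UQCR, COX4 to COX8 or ATP5, or equal to a succinate dehydrogenase subunit symbol or to CYC1, with the NDUFAF assembly factors left out. The rule reads symbols alone, but was set with earlier results of these data known. It gave 158 of the 54613 probe sets on the array, under 83 of its 19775 single symbols. Of these, 148 probe sets for 76 symbols measure subunits of the complexes. The other 10 carry an antisense or divergent transcript (NDUFB2-AS1, NDUFV2-AS1, NDUFV1-DT), a pseudogene (ATP5MC2P1, COX6A1P1), the ATP synthase inhibitor ATP5IF1 or COX7A2L, which takes part in joining complexes III and IV. By symbol, 66 probe sets belong to complex I, 10 to complex II, 14 to complex III, 29 to complex IV and 39 to the ATP synthase.

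The study hybridised total RNA to 6 arrays of the Affymetrix HG-U133 Plus 2.0 design, 3 from cells transiently transfected with a small interfering RNA (siRNA) duplex against NME2 and 3 from cells given control duplexes. NME2 is a nucleoside diphosphate kinase that also binds DNA. All 6 arrays are of the same line and no other treatment is named. Replicates are named biological by the submitters, but separate cultures are not described, and each p-value therefore reflects only how far these samples spread, which may be technical. The submitters' text names Santa Cruz as the source of the duplex, where the methods name Dharmacon, and no source used here gives its sequence. For nucleosome occupancy the methods also describe stable A549 clones depleted with short hairpin RNAs, and the sample titles say only depleted.

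The respiratory chain passes electrons from NADH through complex I, or from succinate through complex II, to coenzyme Q, then through complex III and cytochrome c to complex IV, which reduces oxygen. Complexes I, III and IV pump protons across the inner mitochondrial membrane, and the ATP synthase uses the returning protons to make ATP. Subunits of each complex except complex II come from both nuclear and mitochondrial DNA, and promoters of the nuclear genes are known for sites of NRF1, of the ETS family factor GABP and of YY1, which act on many of them together.

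Those promoters are shown first, since they are a feature that the genes share and that took no part in the choice by symbol. Windows of 300 bases, from 250 before to 50 after each RefSeq start in GRCh38.p14, were found for 61 of the 71 subunit genes tested on the arrays. They were searched on both strands for the exact letters GCATGCGC (NRF1), CCGGAAG (ETS) and AAGATGGC (YY1), and a gene with several starts counted once if any window matched. At least 1 of the 3 motifs was present in 35 of the 61 genes (57.4%), against 23.4% of the 15842 protein-coding genes with a window, these 61 included. The NRF1 letters were found in 21.3% of the subunit genes and 4.89% of all, the ETS letters in 31.2% and 16.5%, and the YY1 letters in 18.0% and 4.67%. By contrast, the GC-box letters GGGCGG were as common in subunit genes (63.9%) as in all (64.3%). Matches are a description of letters, and a window without them says nothing of the factor. Capitals below mark the NRF1, ETS and YY1 letters or their reverse complements.

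The first window, of ATP5PF (a peripheral stalk subunit of the ATP synthase), is shown because it holds all 3 motifs. NDUFB7 and NDUFS3 are shown because they are the complex I subunits with the lowest p in the higher and the lower direction below, and SDHA because it is the complex II subunit of lowest p and its window holds none of the 3. The windows are at chr21:25735005-25735304 (minus strand), chr19:14572017-14572316 (minus), chr11:47578824-47579123 (plus) and chr5:218070-218369 (plus), in GRCh38.p14.
ATP5PF: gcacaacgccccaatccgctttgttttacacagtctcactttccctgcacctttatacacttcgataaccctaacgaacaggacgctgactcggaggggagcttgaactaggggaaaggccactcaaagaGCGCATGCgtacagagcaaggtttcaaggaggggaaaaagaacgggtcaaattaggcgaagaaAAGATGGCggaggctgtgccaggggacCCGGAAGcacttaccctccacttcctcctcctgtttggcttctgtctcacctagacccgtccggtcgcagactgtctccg
NDUFB7: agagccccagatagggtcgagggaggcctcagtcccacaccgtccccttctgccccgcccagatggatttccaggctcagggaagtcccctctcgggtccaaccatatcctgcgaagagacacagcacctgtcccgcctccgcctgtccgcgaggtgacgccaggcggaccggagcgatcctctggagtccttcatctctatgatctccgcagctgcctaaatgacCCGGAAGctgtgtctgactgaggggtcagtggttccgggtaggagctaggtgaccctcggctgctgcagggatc
NDUFS3: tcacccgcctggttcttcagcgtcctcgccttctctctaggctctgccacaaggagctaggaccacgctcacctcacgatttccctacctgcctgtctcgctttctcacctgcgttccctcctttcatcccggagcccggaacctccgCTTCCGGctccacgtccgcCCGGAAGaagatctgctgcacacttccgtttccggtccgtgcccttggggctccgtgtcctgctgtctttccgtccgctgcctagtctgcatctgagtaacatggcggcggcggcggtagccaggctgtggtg
SDHA: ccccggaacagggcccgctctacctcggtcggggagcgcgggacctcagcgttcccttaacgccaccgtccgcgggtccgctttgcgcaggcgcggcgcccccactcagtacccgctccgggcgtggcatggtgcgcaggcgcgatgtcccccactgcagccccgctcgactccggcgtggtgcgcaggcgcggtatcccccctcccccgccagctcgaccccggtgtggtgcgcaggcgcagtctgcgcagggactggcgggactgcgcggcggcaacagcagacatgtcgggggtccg

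The silenced gene was checked first. The NME2 probe set, which also carries the read-through symbol NME1-NME2, gave signals of 17862, 19389 and 21045 in the control arrays and 1920.4, 3676 and 3216 in the depleted arrays. Its log2 difference, depleted minus control, was -2.78 ± 0.19 (SE, n = 3 arrays per group, limma adjusted p = 0.00032), a level 6.85-fold lower, and all depleted arrays lay below all control arrays. Signals are Affymetrix intensities on a linear scale after the authors had scaled each array to a mean of 500, differences are on the log2 scale, and a call means a limma p adjusted over all tested probe sets under 0.05. All 7 epithelial markers of A549 were bright enough to test, from EPCAM at 381 to 837 to AKR1B10 at 30931 to 41316 over the 6 arrays. None of the 7 was called, but the groups did not overlap in EPCAM (0.71 ± 0.16, adjusted p = 0.0884), CDH1 (0.21 ± 0.08) and KRT8 (-0.24 ± 0.08). Of the markers of other cells, 3 of 5 for blood cells (CD14 at 192 to 349.5, HBB and CD3E), 3 of 6 for fibroblasts (COL1A1 at 328 to 586, DCN and LUM) and 1 of 4 for endothelium (PECAM1) were bright enough to test, with overlapping groups in all 7. PTPRC (4.9 to 25.5), LYZ, COL1A2, COL3A1, CDH5, KDR and VWF were among those below that limit. The ratio of the 3' to the 5' probe set of ACTB, a sign of RNA length, was 1.25 ± 0.05 (SD, n = 3) in control and 1.36 ± 0.04 in depleted arrays with no overlap, and that of GAPDH was 0.99 ± 0.03 and 1.02 ± 0.04. The part of these shifts in the differences below was not tested.

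No subunit gene rose or fell past the test. Of the 158 probe sets, 126 (76 symbols) had a mean signal of at least 71.7, the median of the array, and were tested. At the adjusted threshold limma called 0 of the 126, against a background of 108 of 27307 tested probe sets (0.396%, with 0.117% higher and 0.278% lower). With so few called on the whole array, 0 of 126 does not set these genes apart. At an unadjusted p under 0.05 limma gave 9 of the 126 (5 higher, 4 lower), against 12.9% of all tested probe sets (6.48% higher and 6.42% lower). In 17 of the 126 (7 higher, 10 lower) the groups did not overlap, against 18.6% of all. The methods' t-test gave 10 at an unadjusted p under 0.05 (5 higher, 5 lower) and 0 after Benjamini-Hochberg adjustment. The remaining 32 probe sets were too dim to test. Since these are bulk samples, a lower signal could come from fewer cells with the transcript or from less of it in each cell, and the arrays cannot tell these apart.

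Differences were small in most genes by the brightest probe set. Taking for each gene the brightest probe set among those tested gave 71 subunit genes. Of these, 33 had a higher and 38 a lower mean in depleted cells. At an unadjusted p under 0.05, 4 were higher and 3 lower, against 7.25% and 7.75% of the 12406 genes tested. Depleted arrays were all above control arrays in 5 genes and all below in 6, against 10.4% and 10.1% (20.6% in all). The median absolute difference of the 71 was 0.06, against 0.13 over all genes tested, and their median SE was 0.07 against 0.12. Subunit transcripts lay mostly at the bright end of the arrays, where differences of all probe sets were narrower, as the plot of difference against signal shows. The 95% interval of the difference lay within 1.5-fold in either direction for 68 of the 71 subunit genes (95.8%), against 71.5% of all genes, a limit chosen after the values were seen. The intervals of NDUFA7, COX4I2 and COX6A2 went beyond it. For the other 68, a larger change than 1.5-fold lay outside the interval of the limma fit. These are separate intervals for the brightest probe sets, from replicates that may be technical. Some dimmer probe sets of the same genes had wider ones, as in NDUFA10 (0.87 to 2.00 of the control level) and ATP5PD (0.48 to 1.17).

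**Figure D1:**
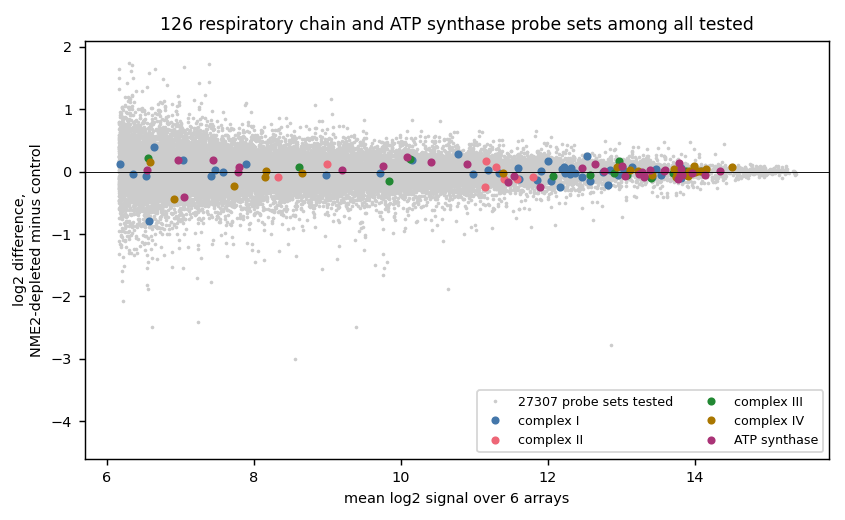
Log2 difference (NME2-depleted minus control, y axis) against mean log2 signal over the 6 arrays (x axis) for the 27307 probe sets tested (grey) and the 126 respiratory chain and ATP synthase probe sets among them (coloured by complex, with the related transcripts). Most coloured points lie at high signal and near 0, and 0 of the 126 passed the test.

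**Figure D2:**
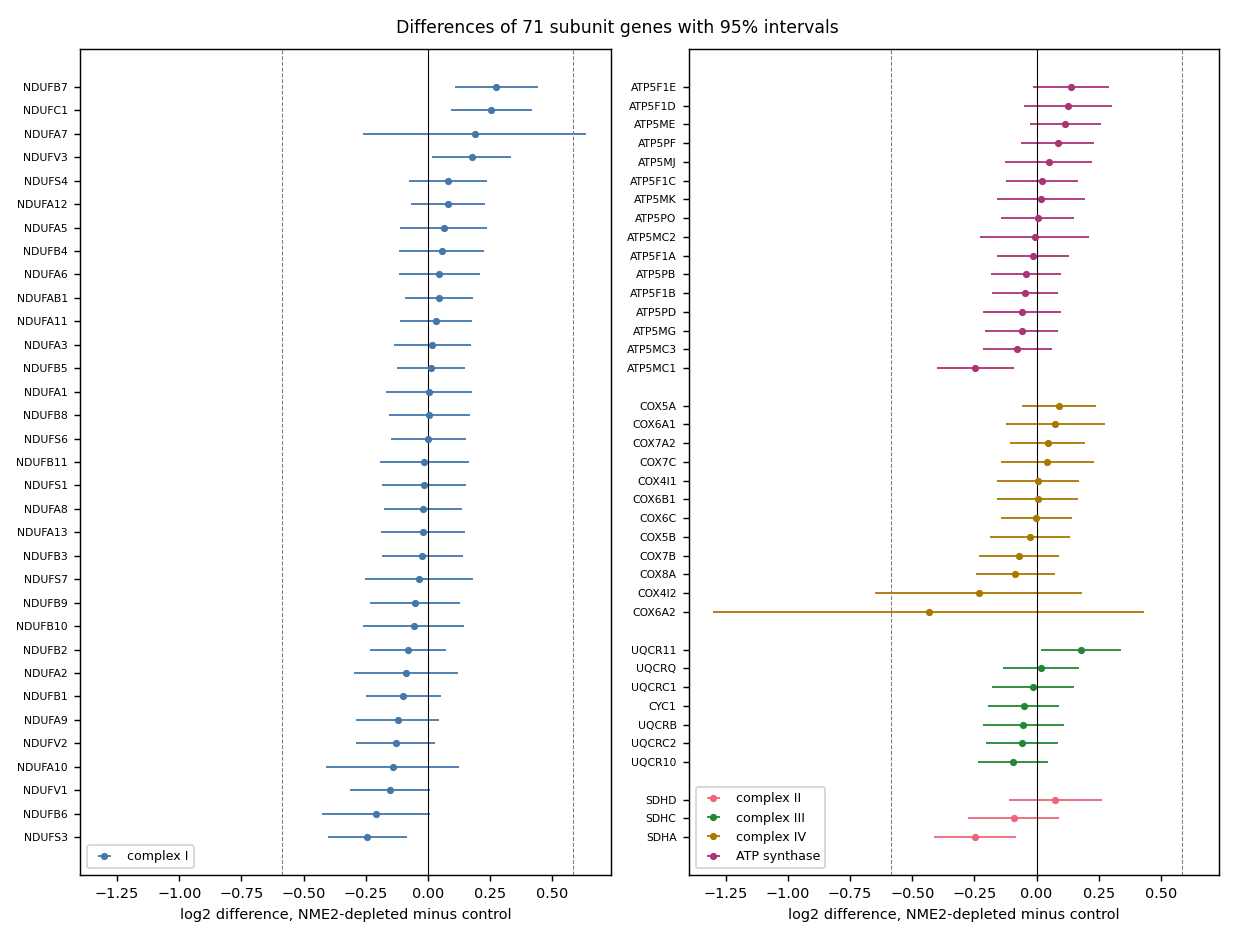
Log2 difference (x axis) of the brightest probe set of each of the 71 subunit genes (rows, complex I on the left, the other complexes on the right), with points for the limma estimate and lines for its 95% interval, 3 arrays per group. Dashed lines mark 1.5-fold. The intervals of NDUFA7, COX4I2 and COX6A2 cross a dashed line and those of the other 68 genes do not.

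Complex I, the NADH dehydrogenase, had 4 of 33 subunit genes at an unadjusted p under 0.05 (12.1%, against 15% of all genes), 3 of them higher and 1 lower. Over the 33 genes the median difference was -0.014 (range -0.24 to 0.28), 16 means were higher and 17 lower, and the groups did not overlap in 6 (18.2%, 3 higher and 3 lower, against 20.6% of all genes). NDUFB7, an accessory subunit of the membrane arm whose promoter is shown above, gave 1558, 1609 and 1622 in control and 1979.8, 1976 and 1847 in depleted arrays. Every depleted value was above every control value. The log2 difference was 0.28 ± 0.08 (SE, n = 3 per group), or 1.21-fold with a 95% interval of 1.08 to 1.36, and its adjusted p of 0.149 was the lowest of any subunit gene and did not pass. A second, dim probe set of NDUFB7 near the limit of testing gave 0.12 ± 0.32. NDUFC1, a small membrane-arm subunit, gave 5063, 5424 and 5765 in control and 6395, 6174 and 6822 in depleted arrays. These groups did not overlap either, with a difference of 0.26 ± 0.07 (adjusted p = 0.167).

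NDUFS3, a core subunit of the arm that holds the iron-sulfur clusters, lay in the other direction. Its signals were 4799.5, 5022 and 5215 in control and 4172, 4510.3 and 4033 in depleted arrays, with no overlap. The difference was -0.24 ± 0.07 (SE, n = 3 per group, adjusted p = 0.183), a fold of 1.18. NDUFV3, an accessory subunit of the NADH-oxidising module, gave 3569, 3994 and 4004 in control and 4265, 4337 and 4459 in depleted arrays, a difference of 0.18 ± 0.07 (adjusted p = 0.335). The other genes under the NDUFV symbol had lower means: NDUFV1, which binds NADH, differed by -0.15 ± 0.07 with overlapping groups, and NDUFV2 by -0.13 ± 0.07 with groups that did not overlap. Neither passed (adjusted p = 0.407 and 0.484), and both were named after their values were seen, as was NDUFA9 (-0.12 ± 0.08), the remaining subunit whose groups did not overlap. By symbol group the median differences were 0.019 over 13 NDUFA genes, -0.021 over 11 NDUFB genes, -0.016 over 5 NDUFS genes and -0.13 over the 3 NDUFV genes.

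Complex II, succinate dehydrogenase, has the fewest genes here, 3 under this annotation. SDHA, the flavoprotein that oxidises succinate, gave 2528, 2535 and 2336 in control and 2148, 2068 and 2013 in depleted arrays, so the groups did not overlap. Its difference was -0.25 ± 0.07 (SE, n = 3 per group), or 1.19-fold lower with a 95% interval of 0.75 to 0.94 of the control level, and the adjusted p was 0.191. The membrane anchor SDHC was measured by 6 tested probe sets that did not move together: 4 had negative differences, from -0.12 to -0.09, and 2 positive ones of 0.12 and 0.17. The brightest of them gave -0.09 ± 0.08 with overlapping groups. A dimmer one gave 2949, 2829 and 2717 in control and 2581, 2595 and 2650 in depleted arrays. Its groups did not overlap, with a difference of -0.12 ± 0.07 (limma adjusted p = 0.526). The other anchor, SDHD, gave 0.08 ± 0.08, with overlapping groups.

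In complex III, which oxidises reduced coenzyme Q and reduces cytochrome c, 5 of 7 genes had lower means, with a median of -0.05 (range -0.10 to 0.18), and the groups overlapped in all 7. UQCR11, a small subunit, had the lowest p. It gave 7333, 7352 and 7900.0 in control and 7820.3, 9056 and 8723 in depleted arrays, a difference of 0.18 ± 0.07 (SE, n = 3 per group, adjusted p = 0.344), and the lowest depleted array lay below the highest control array. The next genes by p were UQCR10 (-0.10 ± 0.06), the core protein UQCRC2 (-0.06 ± 0.07) and CYC1, cytochrome c1 (-0.05 ± 0.07). UQCRB, known as the ubiquinone-binding protein, was read differently by its probe sets. The brightest gave -0.05 ± 0.07 with overlapping groups. A dimmer one gave 1008, 1040.2 and 1075 in control and 1130.2, 1243 and 1216 in depleted arrays, with no overlap and a difference of 0.20 ± 0.09 (unadjusted p = 0.042 from limma, adjusted p = 0.366).

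In complex IV, cytochrome c oxidase, 0 of the 22 probe sets tested separated the groups, against 18.6% of all. By limma 0 of the 22 reached an unadjusted p under 0.05, against 12.9%. Complex III had 1 of 13 separated and 2 of 13 at that p. Over the 12 complex IV genes the median difference was 0.0022, with 6 means higher and 6 lower. COX5A, a matrix-facing subunit, had the lowest p, with 15188, 15845 and 16366 in control and 15755, 17204 and 17553 in depleted arrays. The groups overlapped, and the difference was 0.09 ± 0.07 (SE, n = 3 per group, adjusted p = 0.62). COX8A gave -0.09 ± 0.07. Several complex IV subunits exist as a widespread form and a form of particular tissues. Of the widespread forms, COX4I1 gave 0.0059 ± 0.08, COX6A1 0.08 ± 0.09, COX7A2 0.04 ± 0.07 and COX6B1 0.0051 ± 0.07. These values are near 0, and the signs of COX4I1, COX7A2 and COX6B1 turned negative when each array was centred on its median. The forms of particular tissues were dim: COX4I2 (lung and hypoxia) gave 166 to 268 with a difference of -0.23 ± 0.19, and COX6A2 (heart and muscle) 60.7 to 195 with -0.43 ± 0.39. With 1 array left out these differences ranged from -0.32 to -0.12 and from -0.81 to -0.05. COX7A1, COX6B2, COX7B2 and COX8C were below the limit of testing. COX6B2, known from testis, gave 34.9, 9.5 and 18.0 in control and 61.1, 67.9 and 58.1 in depleted arrays, values under that limit that did not overlap and were not tested. COX7A2L, the factor that joins complexes III and IV, gave 0.07 ± 0.08. COXFA4 and COXFA4L2, the present symbols of NDUFA4 and NDUFA4L2, fall outside the choice by symbol and gave 0.03 ± 0.09 and -0.36 ± 0.26.

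The ATP synthase had 16 subunit genes, with 8 means higher, 8 lower and a median difference of -0.0014 (range -0.25 to 0.14). Its lowest p was that of ATP5MC1, 1 of 3 genes whose products are cleaved to the same mature c subunit of the membrane rotor. ATP5MC1 gave 4037, 4187 and 4174 in control and 3321, 3694 and 3444 in depleted arrays, so that every depleted array was lower. The difference was -0.25 ± 0.07 (SE, n = 3 per group, 1.19-fold, adjusted p = 0.16), with a 95% interval of 0.758 to 0.938 of the control level. The other c-subunit genes gave differences of -0.0077 ± 0.10 for ATP5MC2 and -0.08 ± 0.06 for ATP5MC3, with overlapping groups in both by the brightest probe set. A second bright probe set of ATP5MC3 gave -0.07 ± 0.06 with groups that did not overlap. Whether ATP5MC1 differed from them was not tested.

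In the catalytic head of the ATP synthase, 5 genes had a median difference of 0.02. ATP5F1E, the epsilon subunit, gave 12898, 13174 and 14173 in control and 14685, 14009 and 15636 in depleted arrays, a difference of 0.14 ± 0.07 with overlap (adjusted p = 0.429). ATP5F1D, the delta subunit, gave 0.13 ± 0.08 and ATP5F1B, the catalytic beta subunit, -0.05 ± 0.06, both without overlap between groups. ATP5F1B is named after its values were seen, since its groups separated at the smallest difference among the 11 subunit genes that did so. ATP5ME, of the membrane part, gave 6171, 5827 and 6378 in control and 6706, 6541 and 6658 in depleted arrays by its brighter probe set. These groups did not overlap (0.12 ± 0.07), but its other probe set pointed the other way, at -0.17 ± 0.09, and neither passed (adjusted p = 0.49 and 0.43). ATP5PF, whose promoter holds all 3 motifs, gave 0.08 ± 0.07. The inhibitor ATP5IF1, which blocks ATP hydrolysis when the proton gradient is lost, gave -0.07 ± 0.07 by its brightest probe set and 0.16 ± 0.09 by the next.

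**Figure D3:**
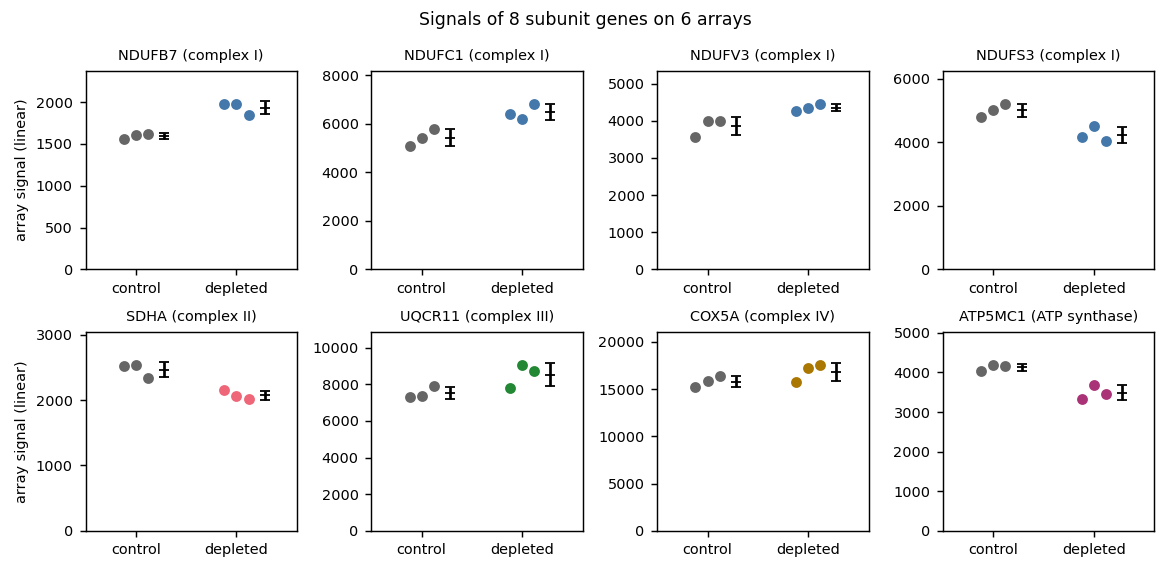
Linear array signals (y axes, each from 0) of 8 subunit genes in 3 control and 3 NME2-depleted arrays (points), with the mean and SD of each group beside them. The groups do not overlap in NDUFB7, NDUFC1, NDUFV3, NDUFS3, SDHA and ATP5MC1 and overlap in UQCR11 and COX5A, and none of the 8 passed the test.

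Among the transcripts that are not subunits, the antisense transcript NDUFB2-AS1 had the widest difference among the members tested. It gave 124, 129 and 123 in control and 71.7, 59.2 and 89.6 in depleted arrays, with no overlap. The difference of -0.79 ± 0.26 (SE, n = 3 per group) came from a dim probe set and did not pass (adjusted p = 0.235). It was chosen after its values were seen.

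Probe sets of the same gene often disagreed, as over the whole array. Of 31 genes with several tested probe sets, all pointed the same way in 15 (48.4%), against 51.1% of the 6103 such genes on the array. A further 15 probe sets carry a member symbol together with another symbol and were not used.

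The complexes were then compared array by array. For each gene its mean log2 signal over the 6 arrays was subtracted, and the median over the genes of a complex was taken on each array. Complexes I, III, IV and the ATP synthase followed the arrays more than the groups. Control array 1 and depleted array 1 were low in all 4, with medians from -0.114 to -0.029, and control array 3 was high, from 0.056 to 0.099. Depleted array 3 lay between 0.0055 and 0.053. The median of all 12406 genes stayed between -0.0096 and 0.015 on these arrays. The medians of these complexes thus spread further between arrays of the same group than between the groups. The pattern was not particular to them. On control arrays 1 and 3 and depleted array 1, the 7 epithelial markers of A549 had medians of -0.126, 0.106 and -0.123. The 7 subunits encoded in mitochondrial DNA, described below, had -0.156, 0.101 and -0.157. The 18 regulators of mitochondrial biogenesis did not follow it, with 0.019, -0.031 and 0.032.

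The medians of complex II were 0.108, 0.056 and 0.046 in control and -0.074, -0.129 and -0.036 in depleted arrays. They did not overlap, but they rest on 3 genes, and 20.6% of all single genes tested also separated the groups. The median difference over the 3 was -0.09, that of SDHC by its brightest probe set, in which the groups overlapped. It ranged from -0.15 (without control array 2) to -0.04 (without depleted array 2). With all probe sets of a gene averaged it was -0.02. With probe sets shared between transcripts left out it was 0.10, but over SDHC and SDHD alone, since SDHA was read only by such a probe set and dropped out. The corresponding medians were -0.014 for complex I, -0.05 for complex III, 0.0022 for complex IV and -0.0014 for the ATP synthase. With each array centred on its median all 5 became negative, from -0.14 for complex II to -0.05 for complex IV, beside a median of -0.05 over all genes. No test of a difference between complexes was made, since genes on the same arrays are not replicates.

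**Figure D4:**
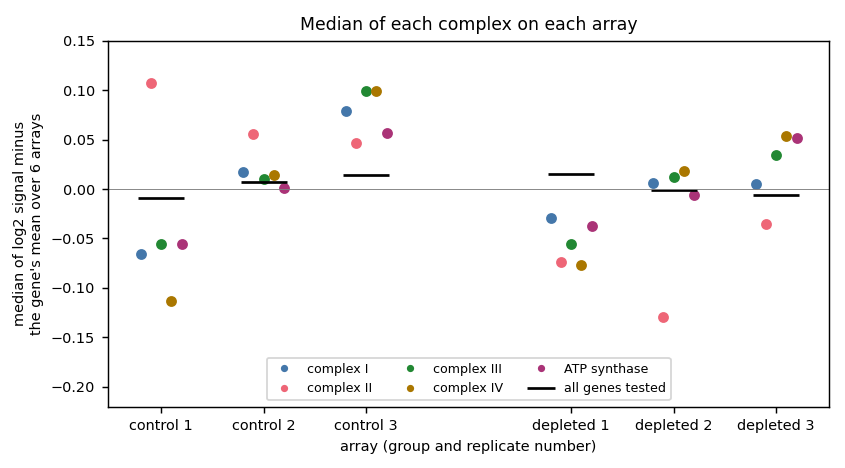
Median over the genes of each complex of the log2 signal minus the gene's mean over the 6 arrays (y axis), for each array (x axis), with black bars for all 12406 genes tested. Complex II (3 genes) lies between 0.046 and 0.108 in control and between -0.129 and -0.036 in depleted arrays, and the other complexes spread over the arrays of both groups.

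Genes with and without the promoter motifs overlapped in their differences, which were not tested against each other. The 35 genes with an NRF1, ETS or YY1 match had a median difference of 0.0059 (range -0.24 to 0.28, 21 higher and 14 lower means). The 26 genes with none had a median of -0.06 (range -0.43 to 0.26, 10 higher and 16 lower). In the 13 genes with the NRF1 letters all differences lay between -0.03 and 0.12. The ETS letters stood in the windows of NDUFB7, with a higher mean, and of NDUFS3, with a lower one, both printed above. Transcripts of the factors themselves, named for their motifs, gave differences of 0.03 ± 0.14 for NRF1, 0.15 ± 0.15 for GABPA, -0.10 ± 0.08 for GABPB1 and 0.08 ± 0.07 for YY1, and none passed the test. The groups did not overlap in GABPB1, lower in every depleted array, as in 20.6% of all genes, and overlapped in NRF1, GABPA and YY1.

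The rest of the pathway was read from lists of genes around the complexes, with 0.54% of all genes tested called and 15% at an unadjusted p under 0.05 (7.25% higher and 7.75% lower). The 7 subunits encoded in mitochondrial DNA that were measured (ND2, ND4, ND6, COX1, COX2, COX3 and ATP6) gave a median of -0.02 with 0 called and overlapping groups in all 7. ND6, the only one of them encoded on the light strand, gave 0.32 ± 0.14 (SE, n = 3 per group, unadjusted p = 0.038, adjusted p = 0.355), while the other 6 lay between -0.04 and 0.19. limma called 0 of 19 complex I assembly factors (median -0.04) and 0 of 23 complex IV assembly factors (median -0.06), with 1 (5.26%) and 4 (17.4%) at an unadjusted p under 0.05. The widest of these with a low p was SCO1, a copper chaperone of complex IV, at -0.30 ± 0.08 (adjusted p = 0.124). NDUFAF8, of complex I assembly, gave -0.17 ± 0.07 and COX20, which helps COX2 mature, 0.20 ± 0.08.

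LYRM7 was called among the 11 assembly factors of complexes II and III. It is a chaperone that passes the Rieske iron-sulfur protein into complex III. Its signals were 862, 880.0 and 769 in control and 1287, 1175 and 1221 in depleted arrays, and the groups did not overlap. It rose by 0.55 ± 0.09 (SE, n = 3 per group, adjusted p = 0.0379), or 1.47-fold with a 95% interval of 1.27 to 1.69. Of its other probe sets, 1 gave 0.67 ± 0.15 (adjusted p = 0.0884) and another 0.52 ± 0.23 with overlapping groups (adjusted p = 0.366). The call was lost when any single array was left out, controls included, with adjusted p from 0.0637 (without control array 1) to 0.138 (without depleted array 1), and with several other settings given at the end. The 10 other factors of this list were not called, with HCCS, the haem lyase of cytochrome c, at -0.19 ± 0.09.

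Among 5 assembly factors of the ATP synthase 0 were called. At an unadjusted p under 0.05 limma gave 1 higher and 1 lower (40.0%, against 15% of all genes). FMC1, named for the formation of this complex, gave 1663, 1780.4 and 1567 in control and 1174, 1463 and 1213 in depleted arrays, a difference of -0.39 ± 0.10 without overlap (adjusted p = 0.134). ATPAF1, a chaperone of the beta subunit, gave 0.21 ± 0.09 (adjusted p = 0.33). Of 18 electron carriers and coenzyme Q synthesis genes 0 were called. ETFB, which delivers electrons from fatty acid oxidation, came nearest, with 4358, 4450.3 and 4483 in control and 3520.3, 3513 and 3707 in depleted arrays. These groups were far apart for their spread, with a difference of -0.31 ± 0.07 (adjusted p = 0.0773, and 0.0412 with a filter at the 75th percentile). COQ9, of coenzyme Q synthesis, gave -0.25 ± 0.08.

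Of the 7 genes of nucleotide and phosphate transport 0 were called, with UCP2, a carrier of the inner membrane, at -0.29 ± 0.09 (adjusted p = 0.191) and the outer-membrane channel VDAC3 at 0.12 ± 0.07. The 18 regulators of mitochondrial biogenesis (median -0.06) and the 16 genes of the TCA cycle (median 0.0088) had 0 called and 0 at an unadjusted p under 0.05. Their lowest p values belonged to POLG2, an accessory subunit of the mitochondrial DNA polymerase (0.21 ± 0.10), POLRMT, the mitochondrial RNA polymerase (-0.19 ± 0.11), and in the TCA cycle SUCLA2 (-0.19 ± 0.09) and IDH3A (0.12 ± 0.07). Of 20 import genes 0 were called and 4 (20.0%) had an unadjusted p under 0.05, all lower. TOMM40, the channel through which nuclear-encoded subunits enter, gave 2399, 2290.2 and 2763 in control and 1540.2, 1886 and 1758 in depleted arrays, with no overlap. Its difference of -0.52 ± 0.10 (adjusted p = 0.055, n = 3 per group) did not pass, but did with median centring (adjusted p = 0.0408) and with a filter at the 75th percentile (0.0383). With 1 array left out its adjusted p ranged from 0.0773 to 0.159. TOMM34, which assists import in the cytosol, gave -0.28 ± 0.08 (adjusted p = 0.171).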

How the data were processed

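RNA was converted to cDNA and biotin-labelled cRNA and hybridised to 1 array per sample. For each probe set (a group of short oligonucleotides for 1 transcript or a few similar ones) the deposited table holds an intensity, made by the authors with GCOS 1.1.1, per the submitters' processing notes. In the deposited table every array had a mean of 500.06 to 500.07 after 2% was trimmed at each end, so such scaling hides a shift shared by all transcripts. Detection calls and scans of single probes were not analysed here. Arrays have no read depth, and their number, 3 per group, limits the precision. No pair of arrays shared more than 0.296% of its values.

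From 54675 probe sets the 62 Affymetrix controls were left out. The 0.327% of values below 1 were raised to 1 before taking log2. Probe sets at or above the median mean log2 signal were tested (27307). The platform annotation gave 1 symbol for 41091 probe sets, several for 1801 and none for 11721, and genes were named from 1 symbol, except NME2. Gene values are those of the brightest tested probe set.

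Groups came from the sample titles. The test was limma 3.58.1 under R 4.3.3 (lmFit, eBayes with an intensity trend, two-sided, Benjamini-Hochberg over all tested probe sets), and the procedure was tested on simulated data. An exact permutation test of 3 against 3 arrays cannot give a p below 0.1 and was not used. Members and gene lists were chosen with earlier results of these data known. Genes named were NME2, up to 4 subunits of lowest p per complex, tissue isoform pairs, genes whose probe sets disagreed with an unadjusted p under 0.05, and called genes or up to 2 of lowest p per list. The text says where another was picked with its values known. The alternatives were quantile normalization, median centring, an offset of 16 before log2, no filter or a filter at the 75th percentile, shared probe sets left out, no intensity trend, the methods' t-test (Student, equal variance), an adjusted p under 0.1, probe sets averaged per gene, the replicate number as a block and each array left out in turn. RefSeq promoter windows of GRCh38.p14 were matched by symbol.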

Additional observations from a re-analysis of the deposited data

How the results depend on the processing

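The count of 0 called members held under every alternative that adjusts p, and the methods' t-test at an unadjusted p under 0.05 gave 10. Without an intensity trend and by the adjusted t-test 0 probe sets were called on the whole array, so no member could be called there. Called probe sets over the whole array numbered 30 with no filter, 192 with a filter at the 75th percentile, 61 with shared probe sets left out, 0 without an intensity trend, 3065 by the methods' t-test unadjusted, 0 by it after adjustment, 326 at an adjusted p under 0.1, and 19 to 70 with 1 array left out, against 108. Median centring gave 19 higher and 107 lower, against 32 and 76. Called pathway genes, 1 in the main setting, numbered 0 with no filter, without the trend, by the adjusted t-test and with probe sets averaged, 3 (LYRM7, TOMM40 and ETFB) at the 75th percentile and at an adjusted p under 0.1, 16 by the unadjusted t-test and 0 with any 1 array left out. With median centring the 1 called was TOMM40 (adjusted p = 0.0408). The adjusted p of LYRM7 was then 0.0799, and it was 0.0711 with no filter, 0.0822 with probe sets averaged, 0.226 by the t-test and 0.249 without the trend.

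With the replicate number as a block 464 probe sets were called (181 higher, 283 lower), 0 members and 4 pathway genes (LYRM7, TOMM40, ETFB and FMC1). Over all tested probe sets, deviations of same-numbered arrays correlated at 0.114, 0.0805 and 0.0702, each array best with its own number. Over the member genes alone the correlations were 0.334, -0.466 and 0.260 for numbers 1, 2 and 3, so the numbers did not pair the arrays evenly there. Nothing in the sources says what the numbers mark.

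The median of complex II was -0.14 with median centring, 0.10 over SDHC and SDHD with shared probe sets left out (which drops SDHA), -0.019 with probe sets averaged and -0.15 to -0.045 with 1 array left out. Signs reversed in genes near 0. With median centring COX4I1 became -0.043, COX7A2 -0.0055, COX6B1 -0.044 and COXFA4 -0.024, and with quantile normalization COX4I1 became -0.0012. With probe sets averaged ATP5ME became -0.028, ATP5MC3 0.013 and UQCRB 0.087. Leaving out 1 array gave ATP5MC2 -0.073 to 0.097, COX4I1 -0.058 to 0.057, COX6B1 -0.045 to 0.060, COXFA4 -0.062 to 0.096, COX6A1 -0.0026 to 0.16 and COX7A2 -0.0076 to 0.085. Of 851 values of single genes, 795 kept their direction and side of the threshold. Much of this was fixed in advance and is no measure of stability. The filters, the trend, the block, the t-test and the looser threshold leave the log2 difference of a probe set unchanged. Only LYRM7 of these genes was called in the main setting, so the same side mostly meant that an uncalled gene stayed uncalled. The causes were not tested. Dim probe sets, such as those of COX4I2, COX6A2 and NDUFB2-AS1, had wide errors.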
